A study of Rattus norvegicus with 8 samples.

Results

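A set of 8 genes of neuropeptide and neurotrophic signalling was followed in rat lung during hypobaric hypoxia. They were galanin (Gal), vasoactive intestinal peptide (Vip), its receptors Vipr1 and Vipr2, brain-derived neurotrophic factor (Bdnf), its receptor Ntrk2, the neurturin co-receptor Gfra2 and neuritin (Nrn1). The 8 genes were chosen by name, with hypoxia ratios of these arrays already known, so their ranks by average ratio only describe them. Every probe whose listed gene name matched was taken. This gave 11 of the 41012 probes on the array. All 8 genes, and 10 of the 11 probes, passed a filter that asked for a signal well above background on at least 4 arrays, as did 24161 genes in all. The second Vipr2 probe was well above background on 1 array and is not used further.

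Rats were pretreated for 7 days with cobalt (12.5 mg/kg body weight) or with normal saline. Each pretreatment had lungs taken after 6, 12, 24 or 48 h at 30000 ft and at 0 h without hypoxia. The groups were cobalt with 6, 12, 24 and 48 h of hypoxia, each set against cobalt 0 h, and saline with 6, 12, 24 and 48 h of hypoxia, each set against saline 0 h. Strain, sex and age were not given in the sources used here, and neither was the number of rats behind each RNA. Each group was 1 two-colour array of 8, so arrays of a pretreatment stood in for replicates, and p-values measured only the spread between arrays. The 4 cobalt arrays lay on 1 slide with hypoxia RNA in Cy3, and the 4 saline arrays lay on another slide, scanned separately, with hypoxia RNA in Cy5. Pretreatment, slide, scan and dye therefore cannot be told apart. The 4 arrays of a pretreatment shared 1 0 h RNA label, whose own spread enters no p-value.

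Values are log2 ratios of hypoxia over 0 h, so 1 is a doubling. The 0 h channels of a pretreatment correlated at 0.992 or more across probes. The log2 ratios correlated less, at 0.412 to 0.751 within a pretreatment and at -0.0982 to 0.269 between pretreatments. All 8 lung markers, among them surfactant protein genes, were measured above background, and 4 of the 8 had lower ratios that passed the test on average.

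Airway and pulmonary vessel nerves release peptides as well as classical transmitters. Vasoactive intestinal peptide relaxes airway and vascular smooth muscle through 2 receptors, VPAC1 (Vipr1) and VPAC2 (Vipr2), which raise cyclic AMP. Galanin is a peptide of sensory and autonomic neurons. Bdnf signals through the receptor tyrosine kinase TrkB (Ntrk2), whose truncated forms lack the kinase. Gfra2 is the anchored co-receptor that presents neurturin to Ret, and neuritin is a small anchored protein induced by neuronal activity and neurotrophins.

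Probes are shown here for the genes on which the results turn, because 2 of them have a pair of probes that can be compared. The Gal probe lay at chr1:206089883-206089942 on the minus strand of the rn3 build. The 2 Ntrk2 probes lay at chr17:11754284-11754343 and chr17:11495183-11495242, both on the minus strand, so that the second is 259.1 kb downstream. Both Bdnf probes were on unplaced sequence of chromosome 3, at chr3_random:976345-976404 and chr3_random:979381-979440 on the plus strand. The Vipr1 probe has no coordinate in the files. Capitals in the first Bdnf probe mark an ATG followed by a reading frame with no stop codon to the probe's end. The upstream Ntrk2 probe holds at least 1 frame without a stop codon.
Gal, first 30 bases: agtcattctaggctaaaaagaatcttccgc
Vipr1, first 30 bases: taaacttgtggagttgtcttgctgatgaag
Ntrk2 upstream, whole: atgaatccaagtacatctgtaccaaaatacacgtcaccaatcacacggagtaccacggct
Ntrk2 downstream, first 30 bases: aggacctttctgaggaggacacagaatgtt
Bdnf first probe, whole: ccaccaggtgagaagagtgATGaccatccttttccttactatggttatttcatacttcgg
Bdnf second probe, first 30 bases: ctgctatatgctaactttttgcagcttcat

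Among the ligands, galanin had the widest range over time. On cobalt arrays the Gal log2 ratio was 3.05 at 6 h, 2.33 at 12 h, 0.76 at 24 h and -0.40 at 48 h. On saline arrays it was 3.45 at 6 h, 2.30 at 12 h, 0.80 at 24 h and -0.17 at 48 h. Both series began far above 0 h, at 8.27-fold with cobalt and 10.9-fold with saline, and ended slightly below it (-0.92 with cobalt and 0.01 with saline after median centring). The 10 spots of this probe on an array had an SD between 0.05 and 0.11, which covers spot noise within an array and not variation between samples. Its average over the 8 arrays, 1.51 ± 0.44 (SE), hides that course. In lung as a whole, fewer cells of a type and less RNA per cell cannot be told apart.

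The hypoxia channel followed the same course as the ratio, and the 0 h channel was not constant. The Gal level in hypoxia RNA, in log2 intensity, was 11.86, 10.48, 8.90 and 7.70 on the cobalt arrays and 12.05, 10.06, 8.27 and 7.15 on the saline arrays, from 6 to 48 h. In 0 h RNA it was 8.81, 8.15, 8.14 and 8.10 on the cobalt arrays and 8.60, 7.76, 7.47 and 7.31 on the saline arrays. The 0 h level was thus highest on the 6 h array of both slides, although the labels name the same 0 h RNA on all arrays of a pretreatment.

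**Figure D1:**
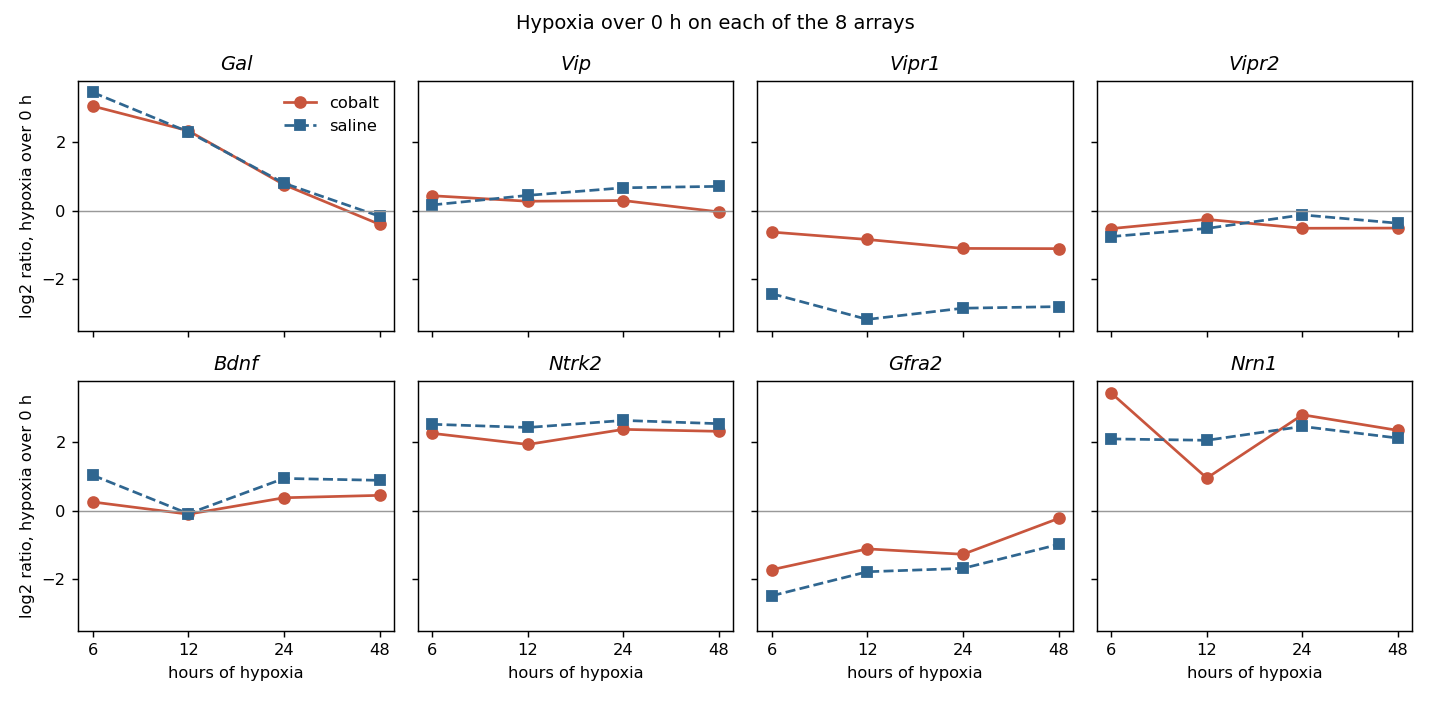
Log2 ratio of hypoxia over 0 h (vertical axis) by hours of hypoxia (horizontal axis, evenly spaced) for the 8 genes, with 1 point per array, cobalt as circles and saline as squares. Gal declines over the 4 durations in both series, the Vipr1 series stay apart at every duration, and Ntrk2 stays between 1.93 and 2.63 on all 8 arrays.

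Late minus early hypoxia (24 and 48 h against 6 and 12 h) was -2.53 ± 0.38 for Gal, with an adjusted p of 0.306 by limma. In that fit no gene of 24161 passed (0% called), and 3110 had an unadjusted p under 0.05, 12.9% of them. The spread in it includes the distance between 6 and 12 h. With duration as a block, a fit added after the data were seen, the same -2.53 had an SE of 0.12 and passed (adjusted p 0.0032). A test added after Gal's values had been seen, and so no independent evidence, took duration as a factor. It asked whether the 4 durations differed, given the pretreatment. Gal passed with an adjusted p of 0.0165 and the lowest p of all 24161 genes. Only 2 genes passed (0.00828% called), and 1974 had an unadjusted p under 0.05. The other, Ankrd1, a muscle ankyrin repeat protein named here for that reason alone, ran the opposite way, with means of 0.03, 0.18, 1.96 and 3.23. No gene passed with median centring in place of loess (Gal adjusted p 0.122; 1981 genes at an unadjusted p under 0.05) or with arrays scaled to 1 spread (0.172; 1790 genes). With 1 array left out, Gal passed only without the cobalt 12 h array (adjusted p 0.0319), and without each of the others its adjusted p was 0.0601 to 0.300. Gal's difference between cobalt and saline was -0.16 ± 0.88, with a 95% interval from -2.12 to 1.80. At matched durations cobalt minus saline for Gal lay between -0.40 and 0.03. With median centring these differences were -2.15, -1.25, -0.94 and -0.93, from 6 to 48 h, and the fitted difference was -1.32 (adjusted p 0.196).

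After loess, Vip itself was above 0 h by little. The Vip log2 ratio was 0.43, 0.27, 0.29 and -0.04 on cobalt arrays and 0.17, 0.44, 0.67 and 0.71 on saline arrays, from 6 to 48 h. It was above 0 on 7 of 8 arrays and highest on the late saline arrays. With median centring it was at -0.04 and -0.25 on the cobalt 12 and 48 h arrays. The average was 0.37 ± 0.07, or 0.72 in the scanner software's own log ratio. In that log ratio Vip was at 0.81, 0.58, 0.60 and 0.01 on cobalt arrays and 0.44, 0.92, 1.28 and 1.08 on saline arrays. Vip levels were low, averaging 7.46 in hypoxia RNA and 7.09 in 0 h RNA over the 8 arrays. The Vip probe lay at chr1:36372337-36372396 in rn3, on the plus strand. Late minus early, cobalt minus saline, gave -0.61 ± 0.24 for Vip (adjusted p 0.916). No gene of 24161 passed that contrast (0% called), and 1311 (5.43%) had an unadjusted p under 0.05.

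Both receptors of the peptide were lower on every array, and Vipr1 by more on average, except that Vipr2 was at 0.21 and 0.14 on the saline 24 and 48 h arrays with median centring. The Vipr1 log2 ratio was -0.62, -0.84, -1.10 and -1.11 on cobalt arrays and -2.42, -3.17, -2.85 and -2.80 on saline arrays. All 4 cobalt values lay above all 4 saline values. The average of -1.86 ± 0.09 was the 4th lowest of the 24161 genes tested. Vipr1 levels in hypoxia RNA averaged 9.57 ± 0.20 on cobalt arrays and 8.41 ± 0.35 on saline arrays (SD, n = 4 arrays each). In 0 h RNA they averaged 10.49 ± 0.12 on cobalt arrays and 11.22 ± 0.06 on saline arrays. The level in hypoxia RNA was lower than in 0 h RNA on each array.

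The Vipr1 response was less negative after cobalt. Cobalt minus saline was 1.89 ± 0.17, with a 95% interval from 1.501 to 2.28 and an adjusted p of 0.00017 by limma. At 6, 12, 24 and 48 h the difference was 1.80, 2.33, 1.74 and 1.69. Vipr1 was the only one of the 8 genes to pass this contrast, in which 7282 genes, 30.1% of those tested, passed, with 12.7% higher. It did not pass under 1 of the alternatives run. With each array only centred on its median, the Vipr1 ratio was -1.50, -1.83, -2.02 and -1.99 on cobalt arrays and -1.60, -2.67, -2.30 and -2.06 on saline arrays, and cobalt minus saline was 0.32 ± 0.22 (adjusted p 0.201). Median centring also moved the median of all genes in this contrast, to -0.78, against -0.04 with loess. Vipr1 stayed below 0 h on all 8 arrays under both.

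In cobalt minus saline, endothelial, surfactant and smooth muscle markers differed in the same direction as Vipr1. However, the surfactant genes averaged above 0 h on cobalt arrays, and the smooth muscle median was above 0 h on every array. Of 8 endothelial markers measured, 5 were lower on average and none higher. Their median ratio lay between -0.16 and -0.03 on the cobalt arrays and between -1.04 and -0.71 on the saline arrays. In cobalt minus saline, 4 of the 8 were higher and none lower. Smooth muscle had the most calls of these lists in that contrast, with 7 of 8 markers higher and none lower. Of the 8 lung markers, 3 were higher in that contrast and 1 lower. The surfactant protein gene Sftpc averaged 1.42 on cobalt arrays and -1.79 on saline arrays, a difference of 3.21 ± 0.15 (adjusted p 2.0e-05). Sftpb and Sftpa1 had differences of 1.85 and 1.40 (adjusted p 0.00070 and 0.00017). The lower one was Scgb1a1, a club cell secretory protein, at -1.74 (adjusted p 0.0014). Sftpb and Sftpa1 averaged 0.75 and 0.51 on cobalt arrays and -1.10 and -0.89 on saline arrays. With the dyes swapped, Cy5 was on average the weaker channel for Sftpc, Sftpb and Sftpa1 on both slides. Over all arrays they averaged -0.19, -0.17 and -0.19 (limma, adjusted p 0.0924, 0.298 and 0.0476). Dye, slide and pretreatment cannot be told apart in these differences. The medians of the lung list lay between -0.42 and 0.10 on cobalt arrays and between -1.52 and -0.66 on saline arrays. The 2 genes whose ratios were closest to Vipr1 over the 8 arrays were Plvap, of endothelial fenestrae and caveolae, and Dll4, a Notch ligand of endothelium, with root mean square differences of 0.44 and 0.69. The part of these markers in the Vipr1 result was not tested.

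After loess, Vipr2 differed little from array to array. The Vipr2 log2 ratio was -0.52, -0.26, -0.51 and -0.51 on cobalt arrays and -0.76, -0.52, -0.12 and -0.37 on saline arrays. The 2 series overlapped, with an average of -0.45 ± 0.07 and cobalt minus saline of -0.01 ± 0.15 (95% interval -0.34 to 0.32). Its probe lay at chr6:143422375-143422434 in rn3, on the plus strand. With median centring the series did not overlap, at -1.06, -0.93, -1.06 and -1.04 on cobalt arrays and -0.36, -0.25, 0.21 and 0.14 on saline arrays. Cobalt minus saline for Vipr2 was then -0.96 (adjusted p 0.00020).

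Among the neurotrophin genes, the receptor was far above 0 h on every array, whereas the ligand was above it by less and not on every array. The upstream Ntrk2 probe gave log2 ratios of 2.26, 1.93, 2.37 and 2.31 on cobalt arrays and 2.52, 2.43, 2.63 and 2.54 on saline arrays. All 8 values lay between 1.93 and 2.63, with an average of 2.37 ± 0.06, the 10th highest of all genes tested. The Ntrk2 level in hypoxia RNA averaged 10.28 ± 0.43 on cobalt arrays and 9.69 ± 0.19 on saline arrays, against 8.06 ± 0.24 in cobalt 0 h RNA and 7.17 ± 0.13 in saline 0 h RNA. Cobalt values were lower at each of the 4 durations, with differences between -0.49 and -0.22. The fitted difference was -0.31 ± 0.12 (adjusted p 0.0863). It passed in the software's log ratio (-0.93, adjusted p 0.0037) and with median centring (-1.51, adjusted p 3.9e-06), and it was 0.44 (adjusted p 0.332) when arrays were scaled to 1 spread.

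The downstream Ntrk2 probe was also above 0 h on every array, by less on average. It gave 2.38, 1.40, 1.06 and 1.47 on cobalt arrays and 1.94, 1.81, 1.29 and 1.33 on saline arrays, with an average of 1.58. After loess it exceeded the upstream probe on the cobalt 6 h array alone. In the software's processed signals it did so there and on the saline 6 h array (3.56 against 3.51). On the saline 12 h array it was at 3.37, against 3.39. Its average was then 2.62, against 3.03 for the upstream probe. Downstream levels in 0 h RNA averaged 7.36 on cobalt arrays and 6.73 on saline arrays, against 8.06 and 7.17 upstream. The lowest level well above background in saline 0 h RNA was 6.02 to 6.17, by array. The part of low signal in the difference between probes was not tested. The upstream ratio varied little over time, whereas the downstream ratio was highest at 6 h in both series. With duration as a factor the adjusted p was 0.755 for the upstream and 0.502 for the downstream probe, so neither difference over time passed.

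**Figure D2:**
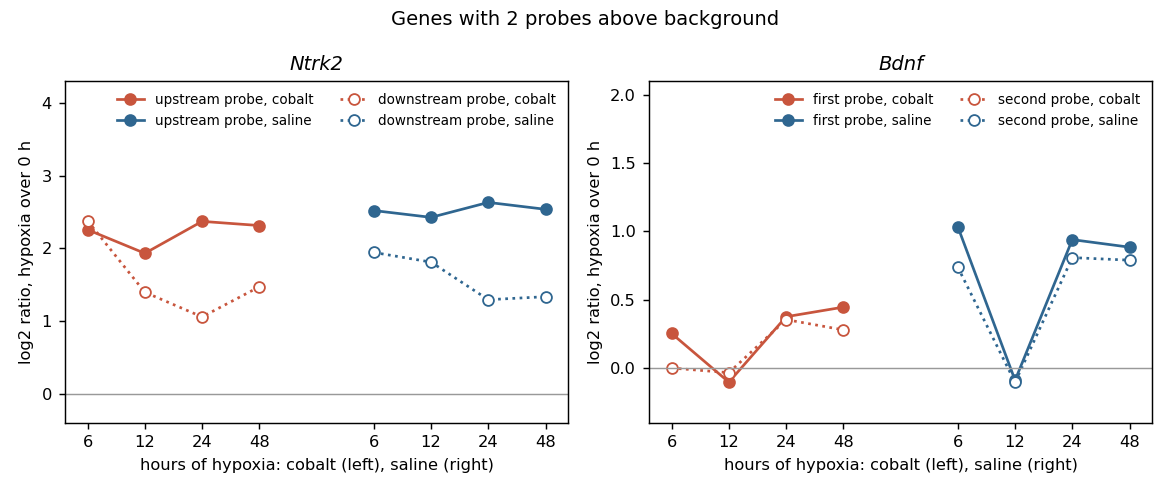
Log2 ratio of hypoxia over 0 h for both probes of Ntrk2 (left) and of Bdnf (right), by hours of hypoxia, with the cobalt arrays left of the saline arrays in each panel. Filled points are the upstream Ntrk2 and first Bdnf probe, open points the downstream Ntrk2 and second Bdnf probe. The Ntrk2 probes are apart on all arrays but cobalt 6 h, where the downstream one is slightly higher, and both Bdnf probes sit near 0 at 12 h.

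After loess, Bdnf was near 0 h at 12 h in both series and higher elsewhere on the saline arrays. The first Bdnf probe gave 0.25, -0.10, 0.38 and 0.45 on cobalt arrays and 1.03, -0.09, 0.94 and 0.88 on saline arrays. The second gave 0.00, -0.03, 0.35 and 0.28 on cobalt arrays and 0.74, -0.10, 0.81 and 0.79 on saline arrays. Both probes were at or just below 0 on the 12 h arrays, and the second also on the cobalt 6 h array. Their averages were 0.47 and 0.35. With duration as a factor, the first probe as the gene's value gave an adjusted p of 0.540. Cobalt minus saline for Bdnf was -0.45 ± 0.25 (adjusted p 0.194; 95% interval -0.997 to 0.10). Without the saline 12 h array it was -0.71 (adjusted p 0.0107), and with median centring it was -1.51 (adjusted p 0.00053). The cobalt ratios were then all below 0, at -0.46, -0.88, -0.39 and -0.29, and the saline ratios were 1.48, 0.08, 1.18 and 1.29.

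Gfra2 was lower on every array, most at 6 h, though with median centring it was at 0.01 on the saline 48 h array. The Gfra2 log2 ratio was -1.72, -1.11, -1.27 and -0.23 on cobalt arrays and -2.48, -1.78, -1.68 and -0.98 on saline arrays. In both series it was lowest at 6 h and nearest to 0 h at 48 h. Its level in hypoxia RNA averaged 10.04 ± 0.79 on cobalt arrays and 10.52 ± 0.59 on saline arrays, against 11.12 ± 0.30 in cobalt 0 h RNA and 12.26 ± 0.08 in saline 0 h RNA (SD, n = 4 arrays each). Its average of -1.41 ± 0.18 was the 17th lowest of all genes tested. Late minus early was 0.73 ± 0.29 (adjusted p 0.365), and with duration as a factor the adjusted p was 0.186, the 19th lowest p of all genes. Its probe lay at chr15:51386676-51386735 in rn3, on the plus strand.

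Cobalt values of Gfra2 were above saline values at each duration, by 0.76, 0.67, 0.41 and 0.76. The fitted difference was 0.65 ± 0.35 (adjusted p 0.193). With duration as a block, which pairs the arrays of 1 duration, it was 0.65 ± 0.11 and passed (adjusted p 0.0069). With median centring it had the opposite sign, at -1.21 (adjusted p 0.0080), so that its direction depends on the normalization.

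**Figure D3:**
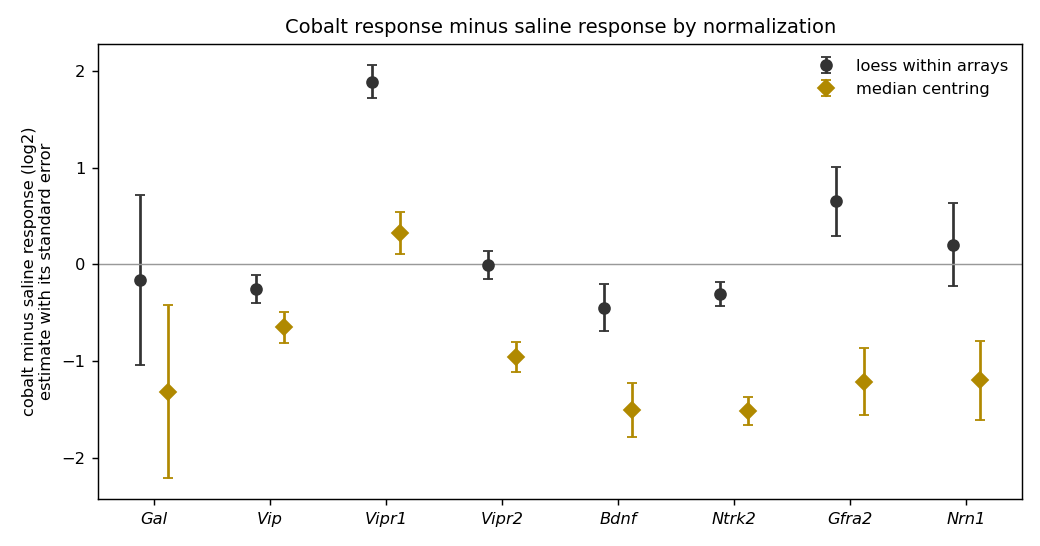
Cobalt response minus saline response for each gene (log2, vertical axis) with its standard error from 8 arrays, after loess (circles) and after median centring (diamonds). Median centring lowers all 8 estimates, brings Vipr1 to 0.32 and places Gfra2 and Nrn1 below 0.

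Nrn1 was above 0 h on every array, with cobalt values widely spread. The Nrn1 log2 ratio was 3.43, 0.95, 2.80 and 2.34 on cobalt arrays and 2.09, 2.05, 2.46 and 2.12 on saline arrays. The saline values lay close together, with an SD of 0.19, whereas the cobalt values had an SD of 1.05 (n = 4 arrays each). The cobalt 6 h array was the highest of the 8 and the cobalt 12 h array the lowest. Nrn1 levels in hypoxia RNA averaged 10.47 ± 1.13 on cobalt arrays and 10.49 ± 0.21 on saline arrays, against 8.09 ± 0.13 in cobalt 0 h RNA and 8.31 ± 0.04 in saline 0 h RNA. Its average was 2.28 ± 0.21, the 12th highest of all genes tested. Cobalt minus saline was 0.20 ± 0.43 (adjusted p 0.758; 95% interval -0.76 to 1.16), 0.68 without the cobalt 12 h array (adjusted p 0.0770) and -1.20 with median centring (adjusted p 0.0195).

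**Figure D4:**
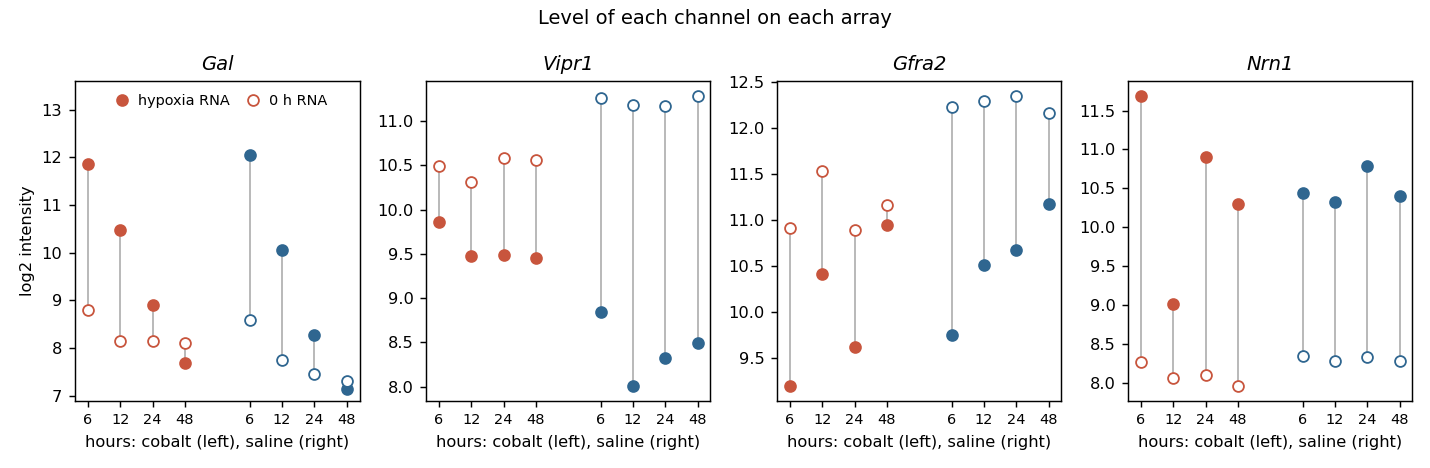
Log2 intensity of the hypoxia RNA (filled) and of the 0 h RNA (open) on each array for Gal, Vipr1, Gfra2 and Nrn1, by hours of hypoxia, with the cobalt arrays left of the saline arrays. Grey lines join the channels of 1 array. The Gal hypoxia level falls over the 4 durations to below the 0 h level at 48 h, and the open Gal points are highest on the 6 h arrays.

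Markers of other cell types were read beside these genes. Among all genes 15.7% were higher and 16.3% lower on average, or 22.9% and 24.6% with median centring. Of 8 smooth muscle markers, 7 were higher on average and none lower. Their median ratio lay between 1.48 and 2.02 on cobalt arrays and between 0.65 and 1.19 on saline arrays. Of 10 nerve and glia markers measured, 3 were higher and none lower (7 and 1 with median centring), with medians between -0.00 and 0.07 on cobalt arrays and between 0.17 and 0.32 on saline arrays. Of 6 pulmonary neuroendocrine markers measured, none passed (4 higher and 1 lower with median centring), and Syp, Scg2 and Insm1 were not well above background on any array. Of 8 T and NK lymphocyte markers, 4 were lower and none higher. Their part in the ratios of the 8 genes was not tested.

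The genes closest in ratio over the 8 arrays are given as a description. Gal lay nearest to Saa4, a serum amyloid A gene, and the metallothionein Mt1, at root mean square differences of 0.87 and 0.92 in log2 ratio. Ntrk2 lay nearest to the kininogens Kng1 and Kng2, at 0.46 and 0.48. Nrn1 lay nearest to Kng1 and to desmin (Des), a muscle filament protein, at 0.61 and 0.63. Gfra2 was closest to Ank2, an ankyrin, and Lrrn3, at 0.34 and 0.41. Bdnf was closest to the chemokine Ccl17 and the semaphorin Sema3b, at 0.17 and 0.22. Vipr2 was closest to the glucocorticoid receptor Nr3c1 and to Ebag9, at 0.11 and 0.13, and Vip to Asrgl1 and Pop7, at 0.15 each.

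Other genes of the same pathways were read from lists of ligands, receptors and trophic factors. Across all genes the average hypoxia response was called for 31.9%, and its median was -0.0014. Of 21 other neuropeptide ligands tested, 6 were higher and 1 lower (8 and none with median centring), with a median of 0.09. Secretin (Sct), the gut peptide of the Vip family, was higher by 1.38 ± 0.17 (adjusted p 0.00049). Arginine vasopressin (Avp) was higher by 0.41 ± 0.08 and urocortin (Ucn) by 0.13 ± 0.03 (adjusted p 0.0043 and 0.0082). Ucn did not pass in the software's log ratio (adjusted p 0.113). In that list Adcyap1, which encodes the Vip-related peptide PACAP, had 0.06 ± 0.03 (adjusted p 0.144).

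Of 17 other neuropeptide receptors tested, 3 were higher and 1 lower (8 and 1 with median centring), with a median of 0.08. The somatostatin receptor Sstr1 was lower, at -0.48 ± 0.05 (adjusted p 0.00021; -1.56 in the software's log ratio). The vasopressin receptor Avpr1a was higher by 0.36 ± 0.07 (adjusted p 0.0041; 0.0792 with median centring). The substance P receptor Tacr1 was higher by 0.27 ± 0.08 (adjusted p 0.0383; 1.65 in the software's log ratio). That call ended without the cobalt 6, 12, 24 or 48 h array or the saline 48 h array (adjusted p 0.0570 to 0.0929). The receptors of galanin were mostly dim. Galr1 was well above background on 1 array and Galr3 on 3, and Galr2, the one tested, had 0.22 ± 0.08 (adjusted p 0.0523). The PACAP receptor Adcyap1r1 was above background on no array.

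Of 9 other neurotrophin genes tested, 2 were higher and none lower (5 and 2 with median centring), with a median of -0.0030. They were neurotrophin 4 (Ntf4), another ligand of TrkB, at 0.59 ± 0.07 (adjusted p 0.00049), and Sorcs3, a sortilin-type receptor, at 0.22 ± 0.06 (adjusted p 0.0187). Neurotrophin 3 (Ntf3) had 0.10 ± 0.04 (adjusted p 0.0788). Of 9 other genes of the GDNF family, 1 was higher and 2 lower (2 and 2 with median centring), with a median of -0.08. Neurturin (Nrtn), the ligand presented by Gfra2, was higher by 0.77 ± 0.08 (adjusted p 0.00025), opposite in sign to Gfra2. The sister co-receptors Gfra3 and Gfra1 were lower, at -0.31 ± 0.06 and -0.32 ± 0.11 (adjusted p 0.0045 and 0.0416). Gfra1 lost its call without the cobalt 6, 12 or 24 h array or the saline 6 or 24 h array (adjusted p 0.0559 to 0.0989). Of 7 other trophic factors, 3 were higher and 1 lower (2 and 1 with median centring), with a median of 0.22. Vgf, a secretory granule protein induced by neurotrophins, was higher by 1.07 ± 0.14 (adjusted p 0.00058; 3.50 in the software's log ratio). Manf, a factor of the endoplasmic reticulum, was higher by 0.66 ± 0.10 and midkine (Mdk) lower, at -0.55 ± 0.08 (adjusted p 0.0016 and 0.0012). In the software's log ratio Avp was at 0.87, Ucn at 0.28, Ntf4 at 0.92 and Sorcs3 at 0.87.

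**Figure D5:**
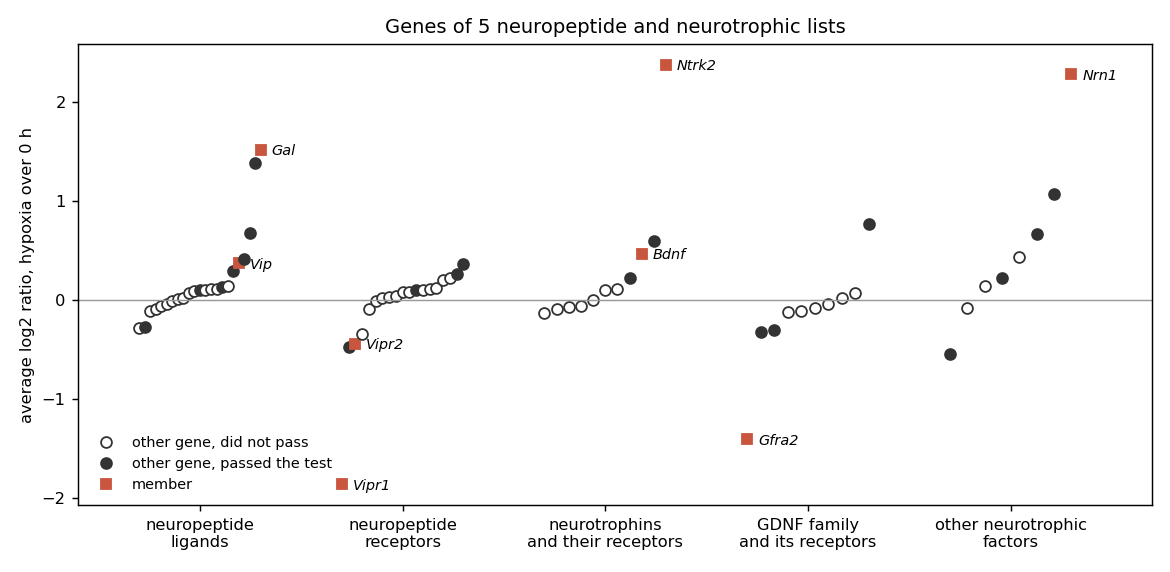
Average log2 ratio of hypoxia over 0 h (vertical axis) for every tested gene of 5 lists, ordered by value within a list. Squares are the 8 genes of this account, shown without a test, and circles are other genes, filled where the adjusted p was under 0.05. Ntrk2, Nrn1, Gal, Vipr1 and Gfra2 lie at the ends of their lists, which is a description, since the 8 were chosen with these ratios known.

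Upstream sequence is shown for Gal and Vipr1, whose ratios went furthest in opposite directions among the genes with an entry, and for 1 Bdnf start site. RefSeq windows of 300 bases (250 before to 50 after a start site, build GRCr8) matched 5 of the 8 genes, with 6 start sites for Bdnf. Ntrk2, Nrn1 and Gfra2 were not matched. Windows were searched on both strands for ACGTG, the core of the hypoxia response element, which 19.3% of all 33469 windows hold, and for TGACGTCA, the cyclic AMP response element, which 1.83% hold. The half-site TGACG, added after the windows were seen, is in 21.2%. ACGTG was present for Gal and in 3 of the 6 Bdnf windows, and absent for Vip, Vipr1 and Vipr2. TGACGTCA was in none, and TGACG was in the windows of Gal, Vip, Vipr1 and 1 of Bdnf. The 250 bases before the start are at chr1:210084573-210084822 on the minus strand for Gal, chr8:130187511-130187760 on the plus strand for Vipr1 and chr3:116637608-116637857 on the plus strand for Bdnf, with matches in capitals. The 2 motifs overlap in the Bdnf sequence, which is from the only 1 of the 6 Bdnf windows that holds both.
Gal upstream: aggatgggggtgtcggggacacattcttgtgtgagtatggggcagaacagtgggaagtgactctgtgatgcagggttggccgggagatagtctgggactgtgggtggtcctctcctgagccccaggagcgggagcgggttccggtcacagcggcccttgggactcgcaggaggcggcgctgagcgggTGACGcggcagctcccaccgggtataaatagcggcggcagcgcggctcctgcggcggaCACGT
Vipr1 upstream: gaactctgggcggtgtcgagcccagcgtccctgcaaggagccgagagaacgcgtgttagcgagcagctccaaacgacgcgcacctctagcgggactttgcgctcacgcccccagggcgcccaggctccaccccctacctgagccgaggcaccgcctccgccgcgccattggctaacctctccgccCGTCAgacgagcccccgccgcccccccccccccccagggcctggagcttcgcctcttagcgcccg
Bdnf upstream: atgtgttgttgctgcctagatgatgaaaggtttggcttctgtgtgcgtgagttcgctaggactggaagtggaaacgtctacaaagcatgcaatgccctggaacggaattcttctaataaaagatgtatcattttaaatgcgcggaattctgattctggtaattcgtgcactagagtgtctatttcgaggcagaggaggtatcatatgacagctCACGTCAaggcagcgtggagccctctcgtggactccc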

How the data were processed

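RNA of rat lung was measured on 8 Agilent 4x44k two-colour arrays. The deposited scanner files hold spot intensity per channel and a log10 ratio of red over green, made by Agilent Feature Extraction 9.5.1.1 per the file headers. The deposited series matrix holds log2 ratios, which matched those log10 ratios turned to log2 (cobalt arrays with the opposite sign), each with a median of 0. Background was corrected by normexp (offset 50), arrays were normalized by loess without control spots, and signs were turned to hypoxia over 0 h. Spots of 60-base probes were averaged without outlier spots. The brightest probe stood for a gene. limma 3.58.1 in R 4.3.3 fitted 8 arrays with a variance trend, Benjamini-Hochberg over all genes, and a call at an adjusted p under 0.05. Errors of fitted values are SE. The number of arrays limits precision. For levels, mean intensities were set equal between arrays by quantiles.

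The 8 genes and all lists were chosen with earlier results of these data known, so no p is given for the 8 in the average. Named were all 8 genes, the 3 other tested genes of each pathway list with the lowest p in the average, and the 2 genes nearest to each of the 8; Galr1, Galr2, Galr3, Adcyap1 and Adcyap1r1 were added as partners of galanin and Vip, and Ankrd1, Gdnf, Ret, Ptn, Nmb and 4 lung markers after their values were seen. Alternatives were other starting values, normalizations, filters, probe rules and variance priors, and each array left out. Duration as a block and duration as a factor were added after the data were seen. Scripts were tested on simulated data.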

Additional observations from a re-analysis of the deposited data

Results flagged for a closer look

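The Vipr1 response differed between the pretreatments by 1.89 on the log2 scale (limma, adjusted p 0.00017), with all 4 cobalt arrays above all 4 saline arrays. The difference was 0.32 (adjusted p 0.201) with median centring and lay between 1.31 and 2.11 under the other alternatives run. Slide, scan and dye orientation coincide with the pretreatment and cannot be told apart from it.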

How the results depend on the processing

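The average response of the 8 genes kept its sign under every alternative run. It moved by more than the fit's spread for Vip (0.72), Vipr2 (-0.66) and Ntrk2 (3.03) in the software's log ratio and the series matrix, and for Ntrk2 with median centring (2.16) and as a mean over probes (1.98). Calls for the average numbered 7711, and 5508 to 7526 without 1 array. For cobalt minus saline they numbered 7282, and 5199 to 7275 without 1 array. Median centring gave 19074, with 17% of genes higher and 61.9% lower, against 12.7% and 17.5% with loess, so that 21.6% of calls were higher, against 42.1% with loess. It reversed Nrn1 (-1.20) and Gfra2 (-1.21), ended the Vipr1 call (0.32) and added calls for Vip (-0.65), Vipr2, Ntrk2 and Bdnf; the cause was not tested. With 1 array left out, cobalt minus saline fell on both sides of 0 for Gal (-0.75 to 0.46), Vipr2 (-0.11 to 0.10) and Nrn1 (-0.15 without cobalt 6 h to 0.68 without cobalt 12 h), and passed for none of them. Late minus early made 0 calls (0 to 3 without 1 array: 1 without saline 6 h, 3 without cobalt 12 h). Its difference between pretreatments made 0 calls (0 to 32 without 1 array: 32 without saline 6 h, 2 without cobalt 12 h). With duration as a block (replicate block) the average had 7675 calls, cobalt minus saline 7227 and late minus early 2, among them Gal (-2.53, adjusted p 0.0032); besides Gal and Gfra2 it changed no call of the 8 genes. Levels averaged over both channels and all 8 arrays moved by more than 1 SD with the software's signals for Bdnf (9.01), Gfra2 (12.26), Vip (7.88) and Vipr2 (9.13).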

Other observations

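Outside the 8 genes, 63 genes of the pathway lists were tested for cobalt minus saline, and 18 passed, 8 higher and 10 lower. Among all genes 30.1% passed. Gdnf, the founding ligand of its family, and Ret, the receptor tyrosine kinase it shares with neurturin, had differences of opposite sign. The Gdnf log2 ratio was 0.46, 0.67, 0.96 and 1.67 on cobalt arrays and -0.32, -0.56, -1.04 and -1.26 on saline arrays, from 6 to 48 h, and cobalt minus saline was 1.74 ± 0.28 (adjusted p 0.0020). The Ret ratio was -0.16, -1.19, -1.002 and -1.55 on cobalt arrays and 1.99, 0.36, 0.63 and -0.02 on saline arrays, a difference of -1.71 ± 0.42 (adjusted p 0.0142). With median centring the Gdnf difference was 0.13 (adjusted p 0.713) and the Ret difference -3.08 (adjusted p 0.00011). Pleiotrophin (Ptn), a heparin-binding growth factor related to midkine, had a difference of -1.92 ± 0.39 (adjusted p 0.0058; -2.71 with median centring). Neuromedin B (Nmb), a bombesin-like peptide, had one of -0.80 ± 0.09 (adjusted p 0.00039; -2.56 with median centring). With median centring 4 of the 18 differences had the opposite sign. After loess, the Gdnf series lay on opposite sides of 0 h in the pretreatments, while their average, 0.07 ± 0.14, did not pass (limma, adjusted p 0.732). With the dyes swapped, Cy5 was after loess the weaker channel for Gdnf on all 8 arrays. Slide, scan and dye coincide with the pretreatment, so none of the 18 differences can be told apart from them.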
